A study of Solanum lycopersicum with 9 samples.

Results

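H3K27me1, the monomethylation of lysine 27 of histone H3, was mapped in leaf chromatin of wild-type (WT) tomato and of *ddm1*, and the sites at which it was called in both genotypes are described here. A WT H3K27me1 peak on one of the 12 chromosomes was counted as kept when it shared at least 1 bp with a *ddm1* H3K27me1 peak. This rule took 1026 of the 6044 WT peaks, or 17.0%. The remaining 5018 WT peaks are called lost and serve as the comparison. The kept sites were therefore chosen by the measured H3K27me1 peaks of both genotypes, and all H3K27me1 values below are descriptions without a test.

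The plants were *Solanum lycopersicum* cultivar M82, either WT or the *Slddm1a/Slddm1b* double mutant, which is mutated in both tomato DDM1 genes and is called *ddm1*. Both genotypes were raised from seed in soil in a growth chamber, and the fourth leaf of plants aged 1 month was taken, so each library averaged all cell types of a leaf. Chromatin immunoprecipitation with sequencing (ChIP-seq) was done for 4 marks in a study of how repressed regions are arranged in the nucleus in relation to the epigenome. There was 1 peak list per genotype for H3K27me1, H3K9me2 and H3K9ac. For H3K27me3 there was 1 list for WT and 2 for *ddm1*, labelled replicates 1 and 2. The methods state 2 biological replicates per genotype, and whether their reads were pooled into each list is not given in the sources used here. With a single H3K27me1 list per genotype, the spread between plants could not be seen and no significance test was possible. The intervals given are 95% intervals for counting error only. They treat peaks as independent, although neighbouring peaks are not.

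DDM1 is a chromatin remodeller that, as known from Arabidopsis, gives DNA methyltransferases access to nucleosomes of transposons and other heterochromatin. H3K27me1 is a mark of constitutive heterochromatin, which in Arabidopsis is laid down by ATXR5 and ATXR6 and keeps heterochromatic DNA from being replicated again. H3K9me2 marks the same compartment and is tied to DNA methylation in a loop between histone and DNA methyltransferases. H3K27me3 is the mark of Polycomb-repressed, mostly genic chromatin, and H3K9ac marks active promoters. The sites at which H3K27me1 was called without DDM1 are described below by their strength, their place on the chromosome and the other marks found there.

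A peak list records what passed the threshold of the authors' peak caller, so a lost peak was not called and signal below that threshold is not seen. Lost peaks were mostly far from any *ddm1* peak. Their median gap to the nearest one was 27888.5 bp, and 194 of them (3.87%) lay within 500 bp of one. Just outside the rule were 12 lost peaks within 20 bp of a *ddm1* peak and 54 within 100 bp. Just inside it were 17 kept peaks that shared under 20 bp with their *ddm1* partner, with 3 bp as the least. Most kept sites were far from this limit, since the median shared length was 162 bp, 824 of them (80.3%) shared at least 50% of the WT peak, and 202 WT peaks lay wholly inside a *ddm1* peak. A single *ddm1* partner was found for 1013 kept peaks and 2 partners for 13. From the other side, 1027 of the 9247 *ddm1* peaks touched a WT peak.

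The kept sites were somewhat stronger than the lost ones, and the strongest WT sites were mostly kept. The fold enrichment at a summit, the authors' ratio of reads over the local background, had a median of 3.01 (interval 2.95 to 3.01) at kept and 2.78 (2.77 to 2.80) at lost WT peaks. The central 50% of values ran from 2.75 to 3.38 at kept and from 2.58 to 3.03 at lost peaks, so the distributions overlapped over most of their range. The kept share was 8.58% (6.60 to 11.1) in the lowest decile of WT fold, 15.2% in decile 5 and 38.6% (34.7 to 42.6) in the highest. Of the 127 WT peaks with a fold of 4 or more, 85 (66.9%) were kept, against 15.9% of those under 4. Among the 20 WT peaks with the highest fold 18 were kept, and among the top 100 it was 75. All of the 20 strongest *ddm1* peaks touched a WT peak, and 58 of the top 100 did. Kept peaks were also longer, with a median of 215 bp against 186 bp, and the kept share was 11.3% in the shortest and 28.3% in the longest quintile of WT peaks.

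The peak heights behind these folds were alike. The read pileup at the summit, solved from the fold and the p-value of each peak, had a median of 26 reads at both kept and lost WT peaks. The local background had a median of 7.57 reads at kept and 8.41 reads at lost peaks, close to the genome-wide level of 6.98 reads in WT. The medians of kept and lost sites thus differed in background and not in pileup. A small group of kept sites stood on a high background. It was at least 2 times the genome-wide level at 47 of 1023 kept peaks (4.59%) and at 20 of 5018 lost peaks (0.399%). The part of this background in the overlap of the genotypes was not tested. Without these peaks, a setting added after seeing the data, 16.3% of the WT peaks were kept.

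**Figure D1:**
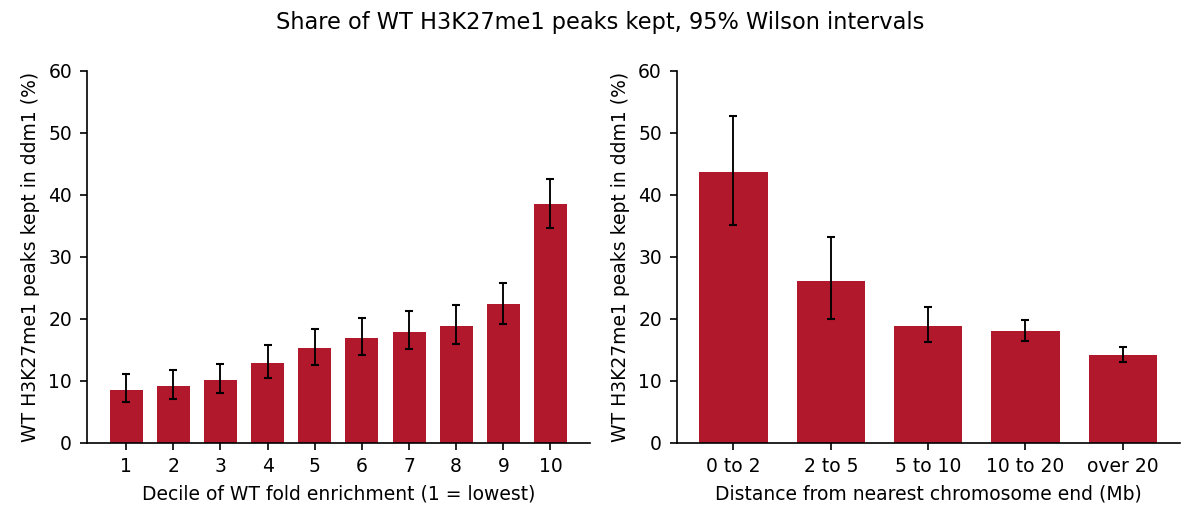
Share of WT H3K27me1 peaks kept in *ddm1* (in percent, bars with 95% Wilson intervals) by decile of WT fold enrichment (left) and by distance from the nearest chromosome end in Mb (right). The share goes from 8.58% to 38.6% across the deciles of fold, and from 43.7% in the outermost 2 Mb to 14.2% beyond 20 Mb.

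At the kept sites the fold enrichment was similar in the genotypes. The median was 3.01 in WT and 2.95 in the *ddm1* partners, and the ratio of *ddm1* to WT had a median of 0.9802 with the central 50% of sites between 0.879 and 1.09. The *ddm1* value was higher at 469 sites and the WT value at 557. At 759 sites (74.0%) the values were within 1.2 times of each other. Only 26 sites differed by over 1.5 times, of which 15 were higher in *ddm1* and 11 in WT. Across the 1026 sites the folds of the genotypes had a Spearman correlation of 0.456 and a Pearson correlation of 0.657, a description over sites that share 2 libraries and a common threshold. The tie was looser among the 941 sites with a WT fold under 4, with a Spearman correlation of 0.378.

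**Figure D2:**
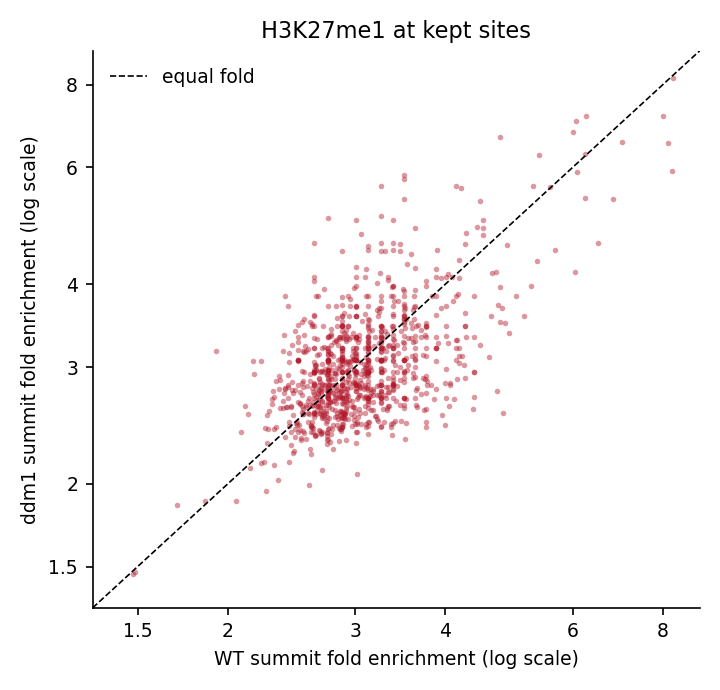
Summit fold enrichment of H3K27me1 in WT (x axis) and *ddm1* (y axis), both on a log scale, with 1 point for each of the 1026 kept sites and a dashed line for equal values. Most points lie in a cloud near a fold of 3 in both genotypes, with a thin arm of strong sites that reaches 8.27 in WT and 8.20 in *ddm1*.

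The summits of the genotypes lay close together, within the width of a peak. The median distance was 61.5 bp (interval 57 to 66), and the central 50% of sites had 26 to 127 bp. The summits were at most 50 bp apart at 431 sites (42.0%) and at most 100 bp apart at 697 (67.9%). At 106 sites they were over 200 bp apart, up to 936 bp, so that an overlap of peaks did not always mean the same summit. The shift had no direction along the chromosome, since the *ddm1* summit had the higher coordinate at 509 sites, the lower at 511 and the same at 6. The summits of strong sites lay closer together. The median distance was 70 bp in the lowest and 48 bp in the highest quintile of WT fold, and 25 bp (12 to 36) at the 37 sites whose fold was 4 or more in both genotypes.

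**Figure D3:**
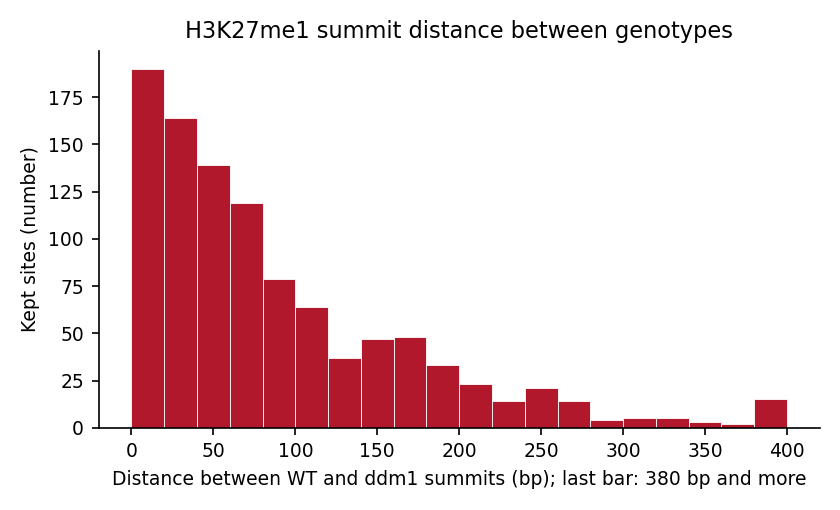
Number of kept sites (y axis) by distance between the WT and *ddm1* H3K27me1 summits in bp (x axis, bars of 20 bp, the last bar holding all sites at 380 bp and more). The counts are highest in the first bar, with 190 sites, and fewer towards larger distances.

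Along the chromosomes, kept sites were most frequent near the ends. Of the 119 WT peaks in the outermost 2 Mb, 52 were kept (43.7%, interval 35.1 to 52.7). The share was 26.1% (19.96 to 33.2) from 2 to 5 Mb, 18.9% from 5 to 10 Mb, 18.1% from 10 to 20 Mb and 14.2% farther in. Within 5 Mb of an end the kept share was higher than in the rest of the chromosome on all 12 chromosomes, from 7 of 35 peaks against 15.0% on chromosome 6 to 47.6% against 15.8% on chromosome 9. On chromosome 1, 12 of 30 peaks within 5 Mb of an end were kept. Of these, 10 lay close together at its far end, and H3K27me3 of *ddm1* replicate 2 touched all 10. Kept peaks also lay close together at both ends of chromosome 2. The ends were higher in each quintile of WT fold as well, with 29.3% against 8.13% in the lowest and 51.8% against 28.5% in the highest. In quintiles 2, 3 and 4 the shares were closer, at 21.4% against 11.1%, 25.8% against 15.5% and 26.0% against 18.1%, and the intervals overlapped in each of these but not in the outer quintiles. The lowest quintile rested on 12 kept of 41 peaks near the ends. Most of these 12 lay in dense spots at the far end of chromosome 1 and the start of chromosome 2. The pair on chromosome 2 had a WT background of 197 and 199 reads, against 6.98 genome-wide. The ends were not compared without these spots, so their part in the difference was not tested. Pooled over the chromosomes, 77 of 357 WT peaks (21.6%, 17.6 to 26.1) were kept in the first 10% of the length by coordinate. In the last 10% it was 54 of 134 (40.3%, 32.4 to 48.8). This contrast was uneven, with 8 of 70 and 10 of 16 on chromosome 1. On chromosomes 3 and 6 the shares were close, and chromosome 4 went the other way, with 8 of 17 and 2 of 5. Few peaks lay near the ends, however, and the outermost 5 Mb held 95 of the kept sites (9.26%) and 189 of the lost ones (3.77%).

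Most kept sites still lay in regions poor in H3K9ac, though less often than lost peaks. Without a gene annotation of this assembly, the 409 of 808 windows of 1 Mb that held at most 15 WT H3K9ac peaks, the median, were taken as H3K9ac-poor. They held 592 kept sites (57.7%, 54.7 to 60.7) and 3300 lost peaks (65.8%, 64.4 to 67.1), a difference of −8.06 percentage points (−11.4 to −4.79). Seen the other way, 15.2% of the WT peaks in H3K9ac-poor windows and 20.2% of those in H3K9ac-rich windows were kept. Measured by the central 50% of each chromosome, the difference was −6.93 points. Within quintiles of WT fold it was negative in all but quintile 2, where it was +4.19 points (−4.25 to 11.6), and its interval lay below 0 only in the highest, at −11.1 points (−17.1 to −5.00). By chromosome, the kept share lay between 11.3% (85 of 751, chromosome 1) and 22.1% (105 of 475, chromosome 8).

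Kept sites were found next to other kept sites. Where the nearest WT neighbour of a WT peak was kept, 28.3% (25.7 to 31.1) of 1049 peaks were kept, and where it was lost, 14.6% (13.6 to 15.6) of 4995. The contrast was wide for neighbours within 2000 bp, with 122 of 216 peaks kept (56.5%) beside a kept neighbour and 94 of 494 (19.0%) beside a lost one. From 2000 to 10000 bp the shares were 27.3% and 17.7%, from 10000 to 50000 bp 18.1% and 13.2%, and from 50000 to 200000 bp 16.8% and 13.2%. It was wide again for the few peaks whose nearest neighbour was farther away, with 22 of 57 kept (38.6%, 27.1 to 51.6) beside a kept and 34 of 197 (17.3%, 12.6 to 23.1) beside a lost neighbour, so there was no steady decline with distance. Kept sites also had closer WT neighbours of any kind, at a median of 20940.5 bp against 31131 bp for lost peaks. Within 2000 bp, 130 kept sites (12.7%) had another kept site, and 402 lost peaks (8.01%) had another lost peak, although lost peaks were more numerous. Shares in groups also depend on the number of peaks in a class, so they do not compare clustering directly. With a gap of at most 10 kb, 828 kept sites stood alone among kept sites and 198 (19.3%) fell into 72 groups, while 21.2% of the more numerous lost peaks and 27.5% of all WT peaks fell into groups of their own class. With a gap of 50 kb the shares were 32.4% for kept and 59.3% for lost peaks. In the order of WT peaks along the chromosomes, 575 kept sites had a lost peak or a chromosome end on both sides, and 122 runs held 2.

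The densest places held few of the sites but stood far out. The longest run of consecutive kept peaks was 15, on chromosome 9 from 32926852 to 32970210, followed within the same window by a run of 8 from 32973801 to 32999287. The next was a run of 7 on chromosome 4 from 48373679 to 48536875. The 1 Mb window of chromosome 9 that starts at 32000001 held 23 kept sites among 28 WT peaks (82.1%). All 23 were touched by an H3K27me3 peak of *ddm1* replicate 2, with folds between 5.25 and 10.5, while 4 were touched in replicate 1 and none by H3K9ac in either genotype. Their median WT background was 21.3 reads, against 6.98 genome-wide, and its part in the result was not tested. Without this window, a setting added after seeing the data, the kept share was 16.7%, and 26.8% beside a kept neighbour.

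Other windows with many kept sites were those on chromosome 10 from 15000001 to 16000000, with 15 of 28 WT peaks kept, and on chromosome 11 from 19000001 to 20000000, with 15 of 33. The highest shares among windows of at least 10 WT peaks, after that on chromosome 9, were 9 of 12 on chromosome 4 from 48000001 to 49000000 and 7 of 10 on chromosome 12 from 39000001 to 40000000. At the other extreme, 52 of 269 such windows had no kept site. The fullest of these was on chromosome 1 from 10000001 to 11000000, where none of 21 WT peaks was kept.

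The other marks were then compared at kept and lost sites. They were measured with other antibodies and took no part in the choice of sites, but the libraries came from the same genotypes and the same single lists. H3K9me2, the other constitutive mark, was found more often at kept sites in both genotypes. In WT, an H3K9me2 peak touched 15.3% of all WT H3K27me1 peaks. It touched 246 of the kept sites (24.0%, interval 21.5 to 26.7) and 676 of the lost ones (13.5%, 12.6 to 14.4), a difference of +10.5 points (7.81 to 13.4). The share at kept sites was higher on 11 of the 12 chromosomes, with 12.8% against 15.0% on chromosome 3 as the exception. In *ddm1*, H3K9me2 touched 7.84% of all WT H3K27me1 peaks. It touched 170 kept sites (16.6%, 14.4 to 19.0) and 304 lost ones (6.06%, 5.43 to 6.75), a difference of +10.5 points (8.25 to 12.99) that had the same direction on all 12 chromosomes.

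Both differences were present in H3K9ac-poor and H3K9ac-rich windows and in each quintile of WT fold. For WT H3K9me2 they were +11.6 points in H3K9ac-poor and +8.18 points in H3K9ac-rich windows, and for *ddm1* H3K9me2 +10.4 and +9.88 points. Kept peaks were longer, so the WT summit base alone was also used, a setting added after seeing the data, which gave +10.4 points for WT and +10.1 points for *ddm1*. The WT H3K9me2 list held no peak under 700 bp, whereas the *ddm1* list went down to 500 bp. With 700 bp as the minimum in both, also added later, the *ddm1* difference was +7.37 points. The WT H3K9me2 peaks that touched kept sites had a somewhat higher fold than those that touched lost ones, with a median of 2.42 (2.34 to 2.47) against 2.27 (2.25 to 2.29), and a median length of 1091 bp against 1152 bp.

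Among the combinations of H3K9me2 in WT and *ddm1*, H3K27me1 was kept most often where H3K9me2 was present in both. Of the 211 WT H3K27me1 peaks with H3K9me2 in both lists, 105 were kept (49.8%, 43.1 to 56.5). The share was 19.8% (17.1 to 22.9) of 711 with H3K9me2 in WT only, 24.7% (19.9 to 30.3) of 263 with it in *ddm1* only and 14.7% (13.7 to 15.7) of 4859 with it in neither. Most kept sites nevertheless had no H3K9me2 peak, 715 of 1026 (69.7%). The same held from the side of H3K9me2. Of the 215 WT H3K9me2 peaks that touched a kept H3K27me1 site, 99 (46.0%, 39.5 to 52.7) were overlapped by a *ddm1* H3K9me2 peak. This was so for 115 of the 596 that touched lost sites only (19.3%, 16.3 to 22.7) and for 1326 of the 8956 that touched no H3K27me1 peak (14.8%, 14.1 to 15.6). H3K9me2 peaks were thus overlapped in *ddm1* most often where H3K27me1 was kept too, and those with lost H3K27me1 were closer to those without any H3K27me1. The median WT H3K9me2 fold of these classes ran in the same order, at 2.42, 2.26 and 2.10. The classes were not compared at equal H3K9me2 fold.

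**Figure D4:**
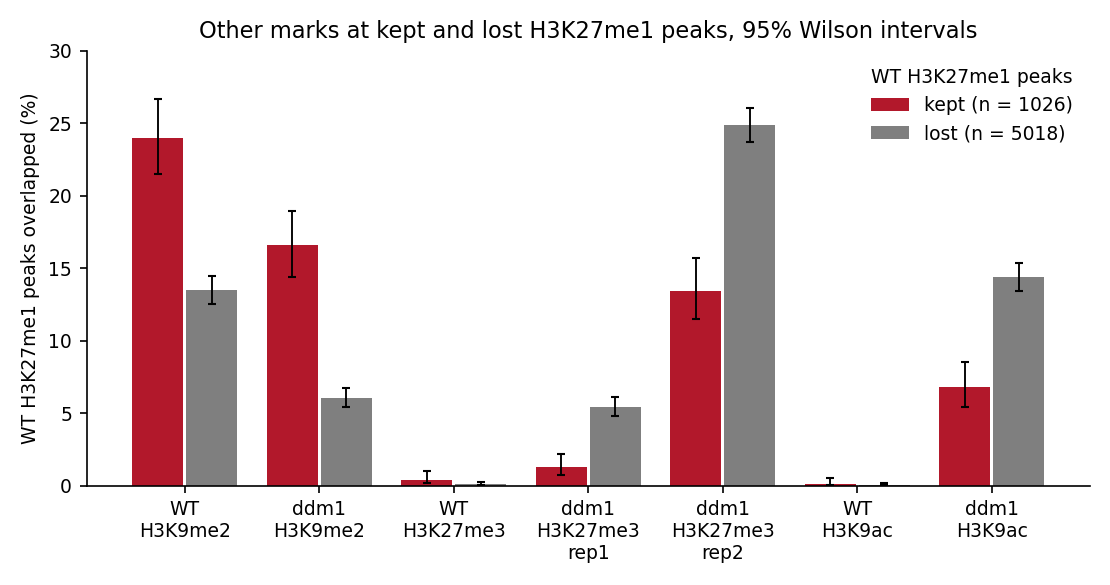
Share of kept (red, n = 1026) and lost (grey, n = 5018) WT H3K27me1 peaks touched by a peak of each of 7 other lists (y axis, percent, with 95% Wilson intervals). Kept sites have the higher share for H3K9me2 in both genotypes, and the lower share for H3K9ac and both H3K27me3 replicates of *ddm1*, while H3K27me3 and H3K9ac of WT are near 0 in both classes.

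H3K27me3 was nearly absent from H3K27me1 peaks in WT. It touched 0.149% of all WT H3K27me1 peaks, 4 of the kept (0.390%) and 5 of the lost ones (0.0996%), too few for a comparison. In *ddm1* it was found less often at kept than at lost sites in both replicates. In replicate 1, where 4.72% of all WT H3K27me1 peaks were touched, it was 13 kept sites (1.27%, 0.742 to 2.16) and 272 lost ones (5.42%, 4.83 to 6.08). In replicate 2, where 22.9% were touched, it was 138 kept sites (13.5%, 11.5 to 15.7) and 1248 lost ones (24.9%, 23.7 to 26.1). The differences were −4.15 points (−5.00 to −3.09) and −11.4 points (−13.7 to −8.90), a mean of −7.79 ± 5.14 points (SD, n = 2) over the replicates. Both replicates were compared with the same kept and lost sites, so this SD covers H3K27me3 only. Without replicate 2 peaks over 10 kb, a setting added after seeing the data, the difference in replicate 2 was −4.01 points. The mean was then −4.08 points, with replicate 1 left unfiltered.

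The difference was negative in both window classes, at −3.38 and −5.30 points in replicate 1 and −14.4 and −6.50 points in replicate 2 for H3K9ac-poor and H3K9ac-rich windows, and in each quintile of WT fold. It had the same direction on all 12 chromosomes in replicate 1 and on 11 in replicate 2. The exception was chromosome 9, where 32.3% of kept and 23.0% of lost sites were touched and where the window with 23 kept sites lies. Replicate 2 covered 16.0% of the chromosomes and replicate 1 2.94%, and the file name of replicate 2 pointed to WT while its label gave *ddm1*, which was followed here. Its lower share at kept sites was not confined to the H3K27me1 peak. At 10 to 20 kb from the summit, replicate 2 covered 8.95% around kept and 19.7% around lost sites. In replicate 1 the corresponding values were 2.05% and 2.87%, and at the summit 0.688% and 4.32%.

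At the strongest sites the lower share of replicate 2 was not seen. Of the 85 kept sites with a WT fold of 4 or more, 41 (48.2%, 37.9 to 58.7) were touched by a replicate 2 H3K27me3 peak, against 15 of the 42 lost peaks with such a fold (35.7%, 23.0 to 50.8), and these intervals overlapped. Outside the chromosome 9 window it was 38 of 82 kept sites. In replicate 1 none of the 85 kept sites and 5 of the 42 lost peaks were touched. In the whole highest quintile of WT fold, replicate 2 touched 20.9% of kept and 28.4% of lost sites. Of the 37 kept sites with a fold of 4 or more in both genotypes, 26 (70.3%, 54.2 to 82.5) were touched in replicate 2, of which 2 lay in the chromosome 9 window. These 37 were selected on the *ddm1* fold too, so they have no counterpart among lost peaks, and H3K27me3 there rests on 1 list.

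H3K9ac was nearly absent from H3K27me1 peaks in WT, where it touched 0.0662% of them, 1 kept and 3 lost. In *ddm1* it touched 13.1% of the WT H3K27me1 peaks, and kept sites less often than lost ones. The counts were 70 kept sites (6.82%, 5.44 to 8.53) and 722 lost ones (14.4%, 13.4 to 15.4), a difference of −7.57 points (−9.27 to −5.61). The share at kept sites was lower on 11 of 12 chromosomes, with 14.9% against 13.9% on chromosome 3 as the exception. It was lower in each quintile of WT fold and in both window classes, by −8.98 points in H3K9ac-poor and −5.74 points in H3K9ac-rich windows. Acetylation peaks at kept sites were also shorter, with a median of 356.5 bp against 495.5 bp, and their median fold was 3.26 (2.92 to 3.74) against 3.99 (3.74 to 4.24). *ddm1* H3K9ac formed a sharp maximum at the WT summit in both classes, with 5.82% of kept and 12.5% of lost summits covered, and 3.18% and 3.71% at 10 to 20 kb.

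**Figure D5:**
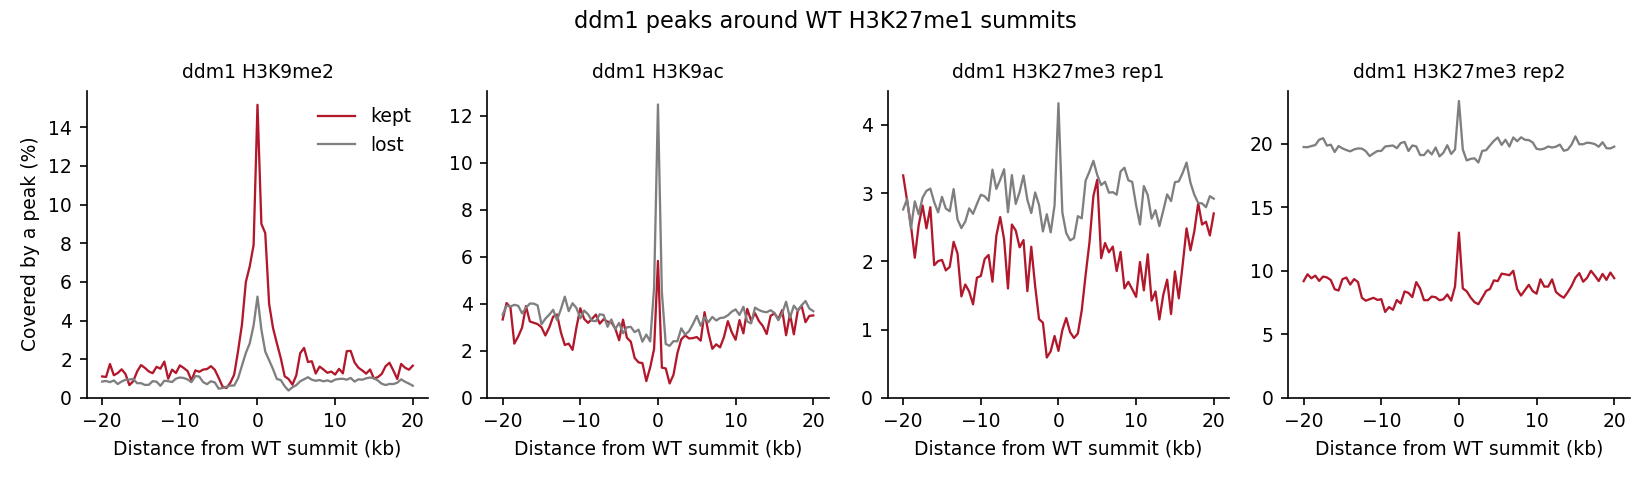
Percent of bases covered by a *ddm1* peak (y axis, bins of 50 bp every 500 bp, with its own scale in each panel) by distance from the WT H3K27me1 summit in kb (x axis), for kept (red) and lost (grey) sites. H3K9me2 is highest at kept summits (15.2% against 5.24%), H3K9ac at lost summits (12.5% against 5.82%), and H3K27me3 of replicate 2 is lower around kept sites over the whole 20 kb on each side.

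The combinations of marks in *ddm1* followed the single marks. Of the 298 WT H3K27me1 peaks touched by both *ddm1* H3K9ac and a *ddm1* H3K27me3 replicate, 13 were kept (4.36%, 2.57 to 7.32). Of the 250 touched in both H3K27me3 replicates, 11 were kept (4.40%, 2.47 to 7.71). H3K9me2 and H3K9ac of *ddm1* met at none of the kept sites, which allows a share of up to 0.373% (Wilson), and at 2 lost ones. Where *ddm1* H3K9me2 and either H3K27me3 replicate met, 32 of 48 WT peaks were kept (66.7%, 52.5 to 78.3), although each of these H3K27me3 replicates was less frequent at kept sites as a whole. Of these 32, 4 lay in the chromosome 9 window, and others at the far end of chromosome 1 and the start of chromosome 2. The share was not computed without these dense spots. No peak of any of the 7 other lists touched 581 kept sites (56.6%) and 2615 lost ones (52.1%), so for most kept sites the other marks gave no distinction.

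Single sites illustrate these classes. The 5 sites with the highest fold in both genotypes lay in H3K9ac-rich windows and had summits at most 63 bp apart. The strongest was on chromosome 7 from 66241426 to 66241772, with a fold of 8.27 in WT and 8.20 in *ddm1* and pileups of 65 and 63 reads. It was followed by chromosome 3 from 60141003 to 60141181, with 8.02 and 7.17 at summits 10 bp apart. The others were chromosome 9 from 67107177 to 67107441 (7.01 and 6.55), chromosome 2 from 44143593 to 44143836 (8.14 and 6.53) and chromosome 9 from 60409535 to 60409811 (6.26 and 7.17). Their WT background was at the genome-wide level, and an H3K27me3 peak of *ddm1* replicate 2 covered each whole site, with folds from 2.97 to 10.7. Of these, the sites on chromosome 7 and at 60409535 on chromosome 9 also touched a WT H3K27me3 peak, over 21 of 347 bp and over all 277 bp.

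The longest shared sites were of another kind. A pair of them lay at the start of chromosome 2, from 1161 to 4124 and from 6203 to 9214, and shared 2961 and 3007 bp between the genotypes. Their folds were low, 1.49 and 1.48 in WT and 1.47 and 1.46 in *ddm1*, on pileups of 294 reads in every case and a WT background of 197 and 199 reads. H3K9me2 of both genotypes and H3K27me3 of replicate 2 touched both, the latter with a fold of 21.1. The genome-wide background was 6.98 reads, and the part of the high local background in these peaks was not tested. The third was on chromosome 7 from 31502505 to 31504864, which shared 2313 bp, had folds of 3.77 and 4.04, and lay wholly in an H3K9me2 peak of WT. Its WT pileup was 102 reads on a background of 26.3 reads, the part of which was not tested either. H3K27me3 of replicate 2 covered all of its 2360 bp, and *ddm1* H3K9me2 covered 1509 bp.

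The sites at which the genotypes differed most had a WT background between 6.98 and 8.16 reads and a *ddm1* background between 6.81 and 11.7 reads. The *ddm1* fold exceeded that of WT most on chromosome 3 from 19997834 to 19998030, with 2.76 in WT and 5.04 in *ddm1* (21 and 42 reads) at summits 8 bp apart. Next were chromosome 5 from 49630382 to 49630686 (2.63 and 4.61) and chromosome 2 from 24103568 to 24103846 (3.26 and 5.64). None of these sites touched another mark in either genotype. The WT fold exceeded that of *ddm1* most on chromosome 2 from 19190702 to 19191055 (4.81 and 2.56), chromosome 9 from 30958266 to 30958731 (4.72 and 2.76) and chromosome 10 from 41565751 to 41566078 (4.37 and 2.60). There the summits were 394, 381 and 619 bp apart, far above the median of 61.5 bp. At the last of these, on chromosome 10, the pileup was 39 reads in WT and 32 in *ddm1*. The *ddm1* background at that site was 11.7 reads against 8.16 in WT, and its part was not tested.

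Among kept sites with H3K9me2, the strongest was on chromosome 11 from 35129776 to 35130757, with a fold of 8.25 in WT and 5.93 in *ddm1*. H3K9me2 covered 945 bp of it in WT and 867 bp in *ddm1*. H3K27me3 of *ddm1* replicate 2 covered all of its 982 bp, with a fold of 13.6. The only kept site with WT H3K9ac was on chromosome 5 from 60796109 to 60796315 (2.83 and 2.56), covered over its 207 bp by H3K9ac in both genotypes, with folds of 15.5 and 7.26. The strongest kept site with *ddm1* H3K9ac was on chromosome 12 from 32133315 to 32133760 (4.26 and 3.46), and the strongest with H3K27me3 of replicate 1 on chromosome 4 from 40084858 to 40085226 (3.72 and 2.89). Replicate 1 covered only 16 bp of the latter. WT H3K9me2, *ddm1* H3K9ac and H3K27me3 of replicate 2 each covered all of its 369 bp. By comparison, the strongest lost peaks were a pair on chromosome 9, from 64223340 to 64223519 and from 64225681 to 64225869, with folds of 7.64 and 7.39. No other mark touched them, and the first lay 146 bp from a *ddm1* peak and the second 1755 bp.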

How the data were processed

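ChIP-seq peak lists of 9 libraries were used, 1 per labelled sample. According to the methods, the authors trimmed reads with Trimmomatic 0.38, aligned them to the M82 V1.0 assembly with Bowtie2, allowing 1 mismatch, and called peaks with MACS3 at a q-value threshold of 0.05 and an extension of 150 bp. The labels give Bowtie2 2.3.5 and SAMtools 1.9. The control and the pooling of replicates are not given in the sources used here. The deposited lists give each peak a fold enrichment (a ratio over the local background), the −log10 of its p-value and of its q-value, and a score, a whole number made from the q-value. In the narrow lists (H3K27me1, H3K9ac) they belong to the summit, and in the broad lists (H3K9me2, H3K27me3) they are means. Read totals were not used, so depth is unknown except through the background level of 6.98 reads in WT and 6.81 in *ddm1* H3K27me1.

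Peaks on the 12 chromosomes were intersected in Python 3.11.15 with numpy 2.4.6, pandas 2.3.3 and scipy 1.17.1, at a minimum of 1 bp. Shares have 95% Wilson intervals, differences of shares Newcombe intervals and medians order-statistic intervals. Pileup and background were solved from fold and −log10 p below 50, and accepted when the p-value of a whole pileup agreed within 0.001. Sites named singly were the 5 with the highest lower fold, the 3 longest shared, the 3 largest and 3 smallest ratios, the longest runs, the fullest windows, the strongest kept site for each other list and the strongest lost peaks. Alternatives changed the q-value, the overlap, the list size, the windows, the weighting and the replicate. The sites, lists and rules were chosen with earlier results of these data known. The steps were tested on simulated peaks. No gene annotation or sequence of this assembly was used.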

Additional observations from a re-analysis of the deposited data

How the results depend on the processing

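Of the 82 alternative values computed, 61 had a direction that could change, and none of these did. Leaving out a H3K27me3 replicate and the 700 bp minimum on the WT H3K9me2 list, 3 values in all, could not leave the range of the main value by construction. Of the other 79, 68 stayed within the interval of the main value (for H3K27me3 within 1 SD) and 11 did not. The share of WT H3K27me1 peaks kept, 17.0%, was 13.7% when at least 50% of the WT peak had to be covered, 13.5% with the *ddm1* list cut to the size of the WT list, and 15.7% with 1 WT peak per 10 kb group. The kept share beside a kept neighbour, 28.3%, was 25.4% with 50% coverage, 22.7% with 1 peak per group and 25.6% without peaks on at least 2 times the genome background. The ratio of median WT fold, kept over lost, was 1.06 at a q of 0.01 or lower against 1.08. The median summit distance was 53 bp with 50% coverage. The *ddm1* H3K9me2 difference was 8.13 points with that list at a q of 0.01 or lower and 7.37 points with peaks of at least 700 bp. The *ddm1* H3K9ac difference was −9.57 points when peaks within 500 bp counted. The cause of these shifts was not tested beyond what each setting removes. The *ddm1* H3K27me3 difference was between −11.4 and −4.15 points when either replicate was left out, and −4.08 points without replicate 2 peaks over 10 kb. Weighting lost peaks to the fold and window class of kept ones gave differences from −8.48 points for H3K9ac to +11.3 points for WT H3K9me2. The settings on 10 kb groups, background, the 700 bp minimum, the chromosome 9 window, the summit base and peaks over 10 kb were added after seeing the data. No paired analysis was possible because only 1 group has numbered replicates. With 1 H3K27me1 list per genotype, differences between plants cannot be told apart from differences between genotypes, and a lost peak may carry signal under the threshold.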
